A study of Mus musculus with 20 samples.

Results

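The 37 genes described here are interferon-stimulated genes, taken by symbol from the gene tables of macrophages grown from mouse bone marrow. They are 37 of the 51456 symbols in each table, and all 37 were among the 10843 genes whose mean level reached 1 FPKQ and that were tested. FPKQ is the deposited unit, a level per transcript length that is treated here as an FPKM. By role the list holds 3 transcription factors (Irf7, Irf9, Stat2), 5 RNA and DNA sensors (Ifih1, Ddx58, Dhx58, Zbp1, Ifi204) and 20 antiviral effectors. The effectors are Ifit1, Ifit2, Ifit3, Mx1, Mx2, Oas1a, Oas2, Oas3, Oasl1, Oasl2, Rsad2, Ifi44, Ifi35, Rtp4, Parp14, Trim30a, Ifitm3, Bst2, Xaf1 and Sp100. The other members are 3 genes of the Isg15 system (Isg15, Usp18, Herc6), 5 GTPases (Gbp2, Gbp3, Ifi47, Igtp, Irgm1) and the chemokine Cxcl10.

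Poly-A RNA was sequenced with strand information from 20 libraries, to compare macrophages with altered Trem2, a myeloid receptor for lipids, with wild-type cells. All mice were of the C57BL/6 strain and aged 4-5 months, and marrow was grown for 6 days with CSF-1 at 50 ng/ml, a cytokine that turns marrow precursors into macrophages. The groups were 5 libraries of a Trem2 knockout labelled 5bp KO (KO), 5 of a knock-in of the R47H substitution (R47H) and 10 wild-type libraries (WT Rep1 to Rep10). The design states 5 animals per genotype and littermate controls for each line, and no label ties a wild-type library to a line. All 10 therefore served as the shared control of both mutants, and the first 5 and last 5 of them by title number were also treated as separate sets, WT Rep1-5 and WT Rep6-10. No library is labelled as treated with an interferon, a virus or a Toll-like receptor ligand.

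Type I interferons act through the receptor Ifnar1 and Ifnar2 and the kinases Jak1 and Tyk2, which phosphorylate STAT proteins. Stat2 and Irf9 are subunits of the complex ISGF3, which binds the interferon-stimulated response element, a pair of GAAA repeats, in the promoters of antiviral genes. Interferon gamma acts through the gamma-activated sequence and drives many of the guanylate-binding proteins. Macrophages keep a low constant level of this programme without infection and raise it when sensors detect viral nucleic acid.

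Letters of the response element can be read in the promoters of some members, though not of all that head the results below. RefSeq windows on GRCm38.p6, from 250 bases before to 50 after a start site, were found for 28 of the 37 genes (33 windows). The letters GAAANNGAAA, on either strand, were in 18 of these 33 windows (54.5%), against 3.44% of all 32851 RefSeq windows. TTCNNNGAA, the core of the gamma-activated sequence, which reads the same on both strands, was in 6 of the 33 (18.2%) against 8.3% of all windows. The 120 bases upstream of the start are printed for Isg15, Oas1a and Ifit1, effectors of the shared antiviral programme. They are also printed for Gbp2 and Gbp3, which were higher in KO. Capitals mark each match to GAAANNGAAA in either orientation, where overlapping matches run together, and in Oas1a also a match to TTCNNNGAA further upstream.
Isg15 (chr4:156200819-156200938, minus strand): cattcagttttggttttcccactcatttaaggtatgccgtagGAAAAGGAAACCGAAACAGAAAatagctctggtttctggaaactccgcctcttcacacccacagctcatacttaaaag
Oas1a (chr5:120907526-120907645, minus strand): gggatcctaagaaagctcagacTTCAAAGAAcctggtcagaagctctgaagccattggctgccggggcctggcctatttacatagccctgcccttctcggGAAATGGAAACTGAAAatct
Ifit1 (chr19:34640769-34640888, plus strand): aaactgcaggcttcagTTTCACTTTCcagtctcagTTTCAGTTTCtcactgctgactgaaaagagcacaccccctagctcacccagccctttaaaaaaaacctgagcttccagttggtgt
Gbp2 (chr3:142620543-142620662, plus strand): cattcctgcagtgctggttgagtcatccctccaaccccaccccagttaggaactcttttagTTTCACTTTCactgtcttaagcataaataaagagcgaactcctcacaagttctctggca
Gbp3 (chr3:142559924-142560043, plus strand): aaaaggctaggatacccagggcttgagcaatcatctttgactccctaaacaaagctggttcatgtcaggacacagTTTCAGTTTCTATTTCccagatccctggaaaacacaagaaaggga
The stretch of Isg15, the ubiquitin-like modifier, holds 3 overlapping matches, and those of Oas1a, Ifit1 and Gbp3 hold 2 each. Gbp2 has 1 match. For Oasl2, Ifi35, Xaf1 and Ifi44, the whole window holds 0 matches, and Ifitm3 has 2, both after the start site. No window was found for Usp18, Mx2 and Oas2. Each printed stretch holds a match, so these stretches do not stand for the whole list. A match is a description of the letters and not a measured binding site.

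Trem2 levels followed the labels. KO libraries read 24.1, 23.7, 24.8, 24.1 and 23.8 FPKQ, R47H libraries 673, 772, 794, 496 and 527 FPKQ, and WT libraries 691 to 901 (median 811) FPKQ. KO differed from WT by -5.0 on the log2 scale (two-sided exact permutation test, p = 0.000333, the smallest that 3003 splits allow) and R47H by -0.33 (p = 0.00833). Low values gave an estimated 46.4 to 71.3 fragments for a level of 1 FPKQ in a gene of 2 kb, and the member value resting on the fewest, Oasl1 in KO Rep3, corresponded to at most about 126. Summed over 8 macrophage markers the levels were 23155 to 26582 FPKQ in WT, 32452 to 35218 in KO and 26406 to 29495 in R47H, mostly from Lyz2 (lysozyme; 20996 FPKQ as the WT mean). The markers went both ways in KO. Called higher were 4, Mertk (1.84), Lyz2 (0.50), Csf1r (0.48) and Adgre1 (0.23). Called lower were 3, Cd14 (-1.26), Itgam (-0.55) and Fcgr1 (-0.43). In R47H 4 were higher than in WT, Mertk (0.84), Cd68 (0.22), Csf1r (0.21) and Lyz2 (0.19). Itgam (-0.41) and Cd14 (-0.32) were lower in R47H. Of the defining markers of plasmacytoid dendritic cells, strong interferon producers, Ccr9, Klk1 and Ly6d were under 1 FPKQ in all libraries. The sum over the list of 6 was 20.8 to 26.5 in WT, 26.4 to 33.7 in KO and 18.6 to 27.9 in R47H. It came mostly from Tcf4, which was higher in KO than in WT (0.26). Siglech reached 2.00 FPKQ in KO Rep1 and was lower in R47H than in KO (-0.36), and Cox6a2 reached 1.45 FPKQ in R47H Rep2. All 6 T and NK cell markers and all 4 B cell markers were also under 1 FPKQ throughout. Neutrophil markers summed to 41.1 to 76.7 FPKQ in WT, 42.3 to 75.4 in KO and 45.9 to 109 in R47H. Of the 4 that could be tested, Ngp was higher in R47H than in WT (0.54), and 0 were called in KO. Inflammatory monocyte markers summed to 29.2 to 46.7, 22.0 to 37.7 and 21.6 to 34.1 FPKQ, mostly from Ccr2. Ccr2 was lower than in WT in both KO (-0.78) and R47H (-0.68), and was not called between the mutants (0.11). Ly6c2 (0.25 in KO, 0.21 in R47H) and Plac8 (0.25 in KO, -0.15 in R47H) were not called. The part of these markers in the results was not tested, and in bulk RNA fewer cells of a type and less RNA per cell cannot be told apart.

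The interferon-stimulated genes were expressed in every library. All 37 had values above 0 in all 20, and 32 of them lay above 13.4 FPKQ, the median level of tested genes. Their median level was 38 FPKQ. Ifitm3, a membrane protein that blocks virus entry, had the highest value, 1521 FPKQ in WT Rep2, and Mx2, a dynamin-like GTPase, the lowest, 2.23 FPKQ in KO Rep3. Levels of Ifit3 and Oas1a are less certain, because 41.1% and 47.6% of their 75-base stretches are shared with Ifit3b and Oas1g.

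The leading feature of the list was how far its genes moved together from library to library within a genotype. The SD between libraries of the same group, on the log2 scale, had a median of 0.32 over the members and 0.13 over all tested genes. All 37 members lay above the median of tested genes, and 30 lay above the 90th percentile. Ifit2 had the widest spread of the members, with an SD of 0.58, and Irf9 the narrowest, 0.17. The histogram of these SDs shows the members to the right of the bulk of genes.

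**Figure D1:**
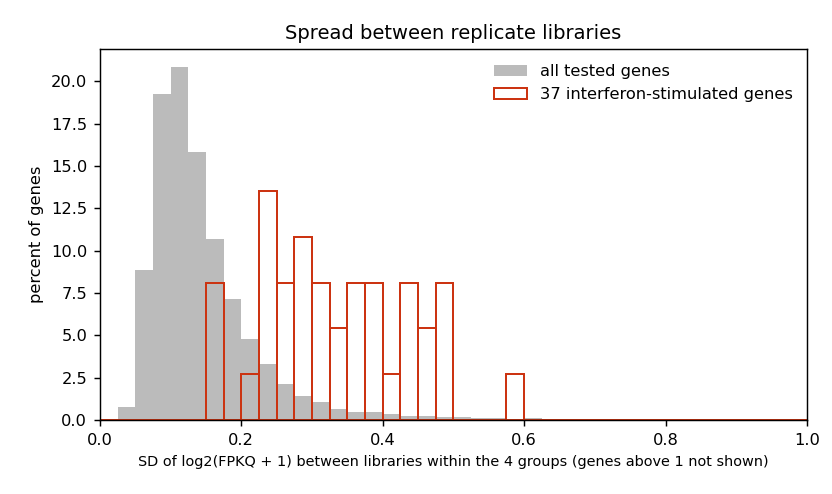
Standard deviation of log2(FPKQ + 1) between libraries within the 4 groups (horizontal axis) against the percent of genes (vertical axis), for all 10843 tested genes (grey) and the 37 members (red outline). The member median is 0.32 and that of all tested genes 0.13.

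Each library was given a list level, the median over the 37 genes of its log2 value minus the mean of the 10 WT libraries. In KO the list levels were 0.13, -0.09, -0.76, 0.04 and -0.33 from Rep1 to Rep5. In R47H they were 0.01, -0.09, -0.54, 0.44 and 0.48. WT libraries ran from -0.47 in Rep9 to 0.29 in Rep4. The 3 genotypes overlapped: the lowest libraries were KO Rep3, R47H Rep3 and WT Rep9, and the highest were R47H Rep5, R47H Rep4 and WT Rep4. In R47H Rep5 and WT Rep4 all 37 genes were above the WT mean, and in WT Rep7 and WT Rep9 0 of 37 were. KO Rep3 and R47H Rep3 were also the libraries with the fewest fragments per FPKQ, 46.4 and 48.3 at 1 FPKQ in 2 kb, whereas WT Rep9 had 63.8. R47H Rep4 and Rep5 had the lowest Trem2 of their group (496 and 527 FPKQ) and R47H Rep3 the highest (794 FPKQ). By Xist and Y-linked genes, 6 of 10 WT libraries, 1 of 5 KO and 1 of 5 R47H libraries were male. The parts of fragments per FPKQ, of Trem2 level and of sex in these list levels were not tested.

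**Figure D2:**
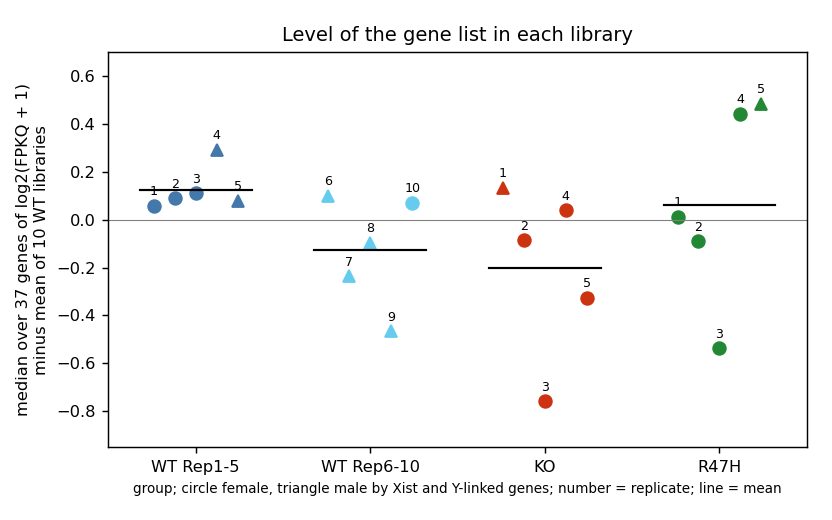
List level of each library, the median over 37 genes of log2(FPKQ + 1) minus the mean of the 10 WT libraries (vertical axis), by group (horizontal axis). Circles are female and triangles male libraries, numbers are replicates and lines are means of 5; WT Rep1-5 lie between 0.06 and 0.29, while KO spans -0.76 to 0.13 and R47H -0.54 to 0.48.

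Spread differed in size between the groups. For the median member the highest library stood 1.22-fold above the lowest in WT Rep1-5, 1.45-fold in WT Rep6-10, 1.91-fold in KO and 2.07-fold in R47H. The widest ratio was that of Ifit2 in R47H, 4.18-fold. Ifitm3 in R47H had the narrowest ratio of that group, 1.1-fold. These ratios are descriptions over 5 libraries each and were not tested.

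Across all 20 libraries, after removing group means, the members were positively correlated in 666 of 666 pairs, with a median r of 0.88. Ifit3, an RNA-binding partner of Ifit1, followed the median of the other members most closely (r = 0.99). Gbp2 (r = 0.93) and Gbp3 (r = 0.96) also followed that median. Bst2 (tetherin, which holds budding virus at the cell surface; r = 0.59), Ifitm3 (r = 0.63) and Ifi35 (a partner of Nmi; r = 0.79) followed it least. The points share libraries, depth and scaling, so these values are given as a description. The heat map shows the same pattern as whole columns of one colour, with Gbp2, Gbp3 and Ifi44 standing out in KO.

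**Figure D3:**
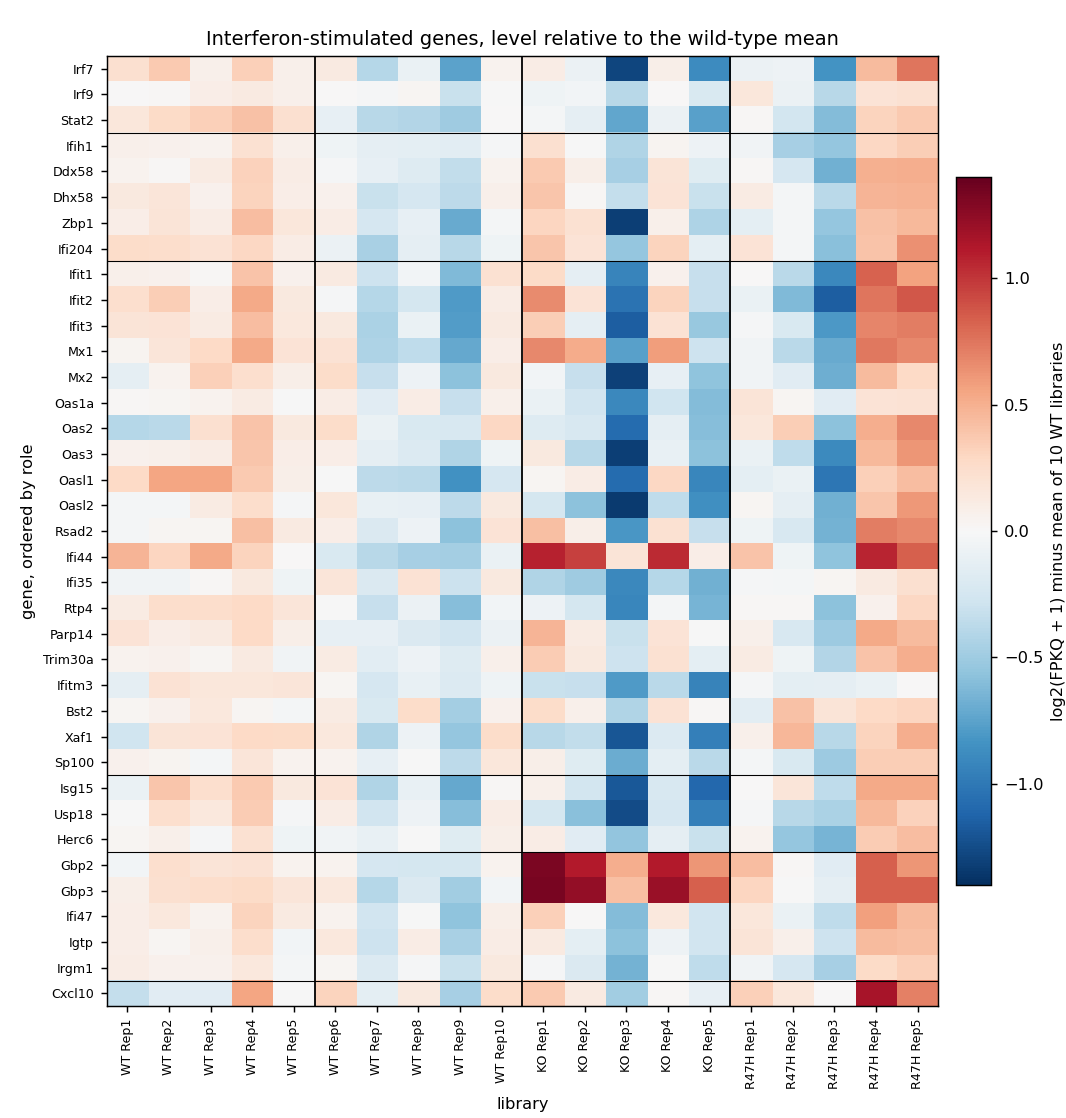
Level of each member (rows, ordered by role, lines between roles) in each library (columns, lines between groups), as log2(FPKQ + 1) minus the mean of the 10 WT libraries, blue lower and red higher. KO Rep3 and R47H Rep3 are mostly blue, R47H Rep4 and Rep5 mostly red, and the rows of Gbp2 and Gbp3 are red across KO.

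In KO macrophages 8 of the 37 genes were lower than in WT and 3 were higher. The lower genes were Oasl2, Usp18, Xaf1, Ifi35, Ifitm3, Isg15, Mx2 and Oas1a, 6 antiviral effectors with Isg15 and its protease Usp18. The higher genes were Gbp3, Gbp2 and Ifi44. The other 26, including all 3 transcription factors and all 5 nucleic acid sensors, did not pass the test. Calls are at an adjusted p under 0.05 in limma over all tested genes.

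Of all tested genes 23.7% were lower and 28.2% higher in KO, so the 21.6% of members called lower lay close to the background and the 8.11% called higher lay under it. The median member difference was -0.21 and that of all tested genes 0.01, both on the log2 scale, and 29 of 37 members were below 0. With libraries rescaled to equal sums 11 members were lower and 2 higher, a setting for which no share of tested genes is given. The groups did not overlap for 4 members: Gbp2 and Gbp3 were above WT in all 5 KO libraries, and Ifi35 and Ifitm3 below it, where 15.4% and 13.3% of tested genes were so placed. Both mutants were set against the same 10 WT libraries, so their differences from WT are not independent of each other.

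**Figure D4:**
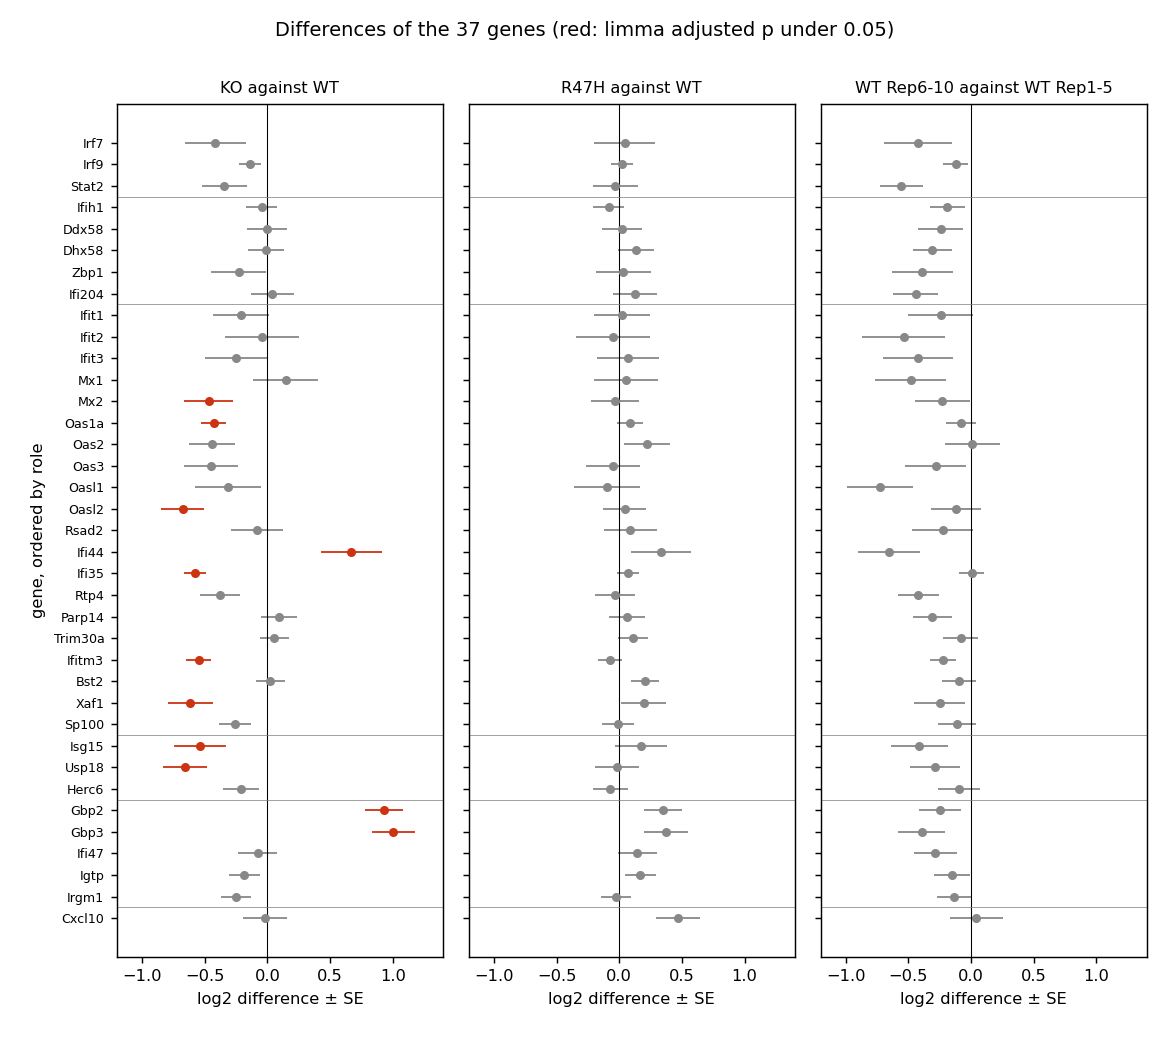
Difference of each member on the log2 scale with its standard error (horizontal axes), by gene in role order (vertical axis), for KO against WT, R47H against WT and WT Rep6-10 against WT Rep1-5. Red marks an adjusted p under 0.05 in limma: 11 genes in KO, 0 in R47H and 0 between the wild-type sets.

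Among the transcription factors, Irf7, the master regulator of the interferon response that is itself interferon-induced, had the highest mean. It read 83.9, 73.5, 31.3, 82.5 and 41.8 FPKQ in the 5 KO libraries, 73.8, 74.2, 43.4, 106 and 132 FPKQ in R47H and 46.2 to 101 (median 82.3) FPKQ in WT. KO Rep3 and Rep5 and R47H Rep3 lay below every WT library and R47H Rep4 and Rep5 above every one, with the rest inside the WT range. KO differed from WT by -0.42 ± 0.24 on the log2 scale (SE; adjusted p = 0.161) and R47H by 0.04 ± 0.24 on the log2 scale (SE; adjusted p = 0.928), neither beyond the spread between libraries. Irf9 and Stat2, the partners in ISGF3, differed in KO by -0.14 and -0.34 and in R47H by 0.02 and -0.03, with 0 calls.

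The sensors of viral nucleic acid did not pass the test in either mutant. Ifi204, a DNA-binding protein of the Ifi200 family, had the highest level of the 5. Its values were 141, 123, 73.6, 133 and 97.7 FPKQ in KO, 123, 106, 71.4, 143 and 168 FPKQ in R47H and 78.5 to 132 (median 109.7) FPKQ in WT. KO and R47H libraries fell on both sides of the WT range, and the differences were 0.04 ± 0.18 for KO and 0.12 ± 0.18 for R47H (adjusted p = 0.862 and 0.663). Ifih1 (MDA5) and Ddx58 (RIG-I), helicases that sense viral RNA, differed in KO by -0.05 and -0.00. Their regulator Dhx58 (LGP2) differed by -0.01, and Zbp1, the sensor of Z-form nucleic acid, by -0.23. Their R47H differences lay between -0.09 for Ifih1 and 0.13 for Dhx58.

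Of the 20 antiviral effectors 6 were lower in KO, 1 was higher and 13 were not called. The shares were 30% lower and 5% higher, where 23.7% and 28.2% of tested genes were called. Ifitm3, at chr7:141009586-141010770, minus strand, was the most abundant. KO libraries read 1063, 1053, 759.7, 1016 and 691 FPKQ, R47H libraries 1309, 1203, 1205, 1237 and 1328 FPKQ and WT libraries 1121 to 1521 (median 1305) FPKQ. Every KO library was below every WT and every R47H library. The KO difference was -0.55 ± 0.10 on the log2 scale (SE; adjusted p = 7.3e-05), and the R47H difference -0.07 ± 0.10 on the log2 scale (SE; adjusted p = 0.647). With quantile-normalized levels, the R47H difference was -0.25 and was called.

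Ifi35 (chr11:101448407-101458698, plus strand), an interferon-induced leucine zipper protein, had the smallest adjusted p of the members. Its levels were 30.2, 28.5, 21.3, 30.5 and 25.2 FPKQ in KO, 40.3, 39.8, 41.6, 44.6 and 47.6 FPKQ in R47H and 32.9 to 47.1 (median 40.3) FPKQ in WT. The KO range ended below the lowest WT library, and the R47H range lay almost wholly within that of WT. KO was lower, with a difference of -0.58 ± 0.09 on the log2 scale (SE; adjusted p = 8.2e-06), which is 0.67 of the WT level, and R47H differed by 0.07 ± 0.09 (adjusted p = 0.628).

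Oasl2, a ubiquitin-like relative of the 2-5 oligoadenylate synthetases, had the largest fall of the list. Its values were 75.6, 59.9, 35.0, 69.9 and 49.3 FPKQ in KO, 91.7, 82.1, 56.2, 118 and 137 FPKQ in R47H and 69.5 to 107 (median 88.8) FPKQ in WT. KO Rep2, Rep3 and Rep5 were below every WT library and KO Rep1 and Rep4 were near its lower end, while R47H fell on both sides. KO differed from WT by -0.68 ± 0.17 on the log2 scale (SE; adjusted p = 0.00228) and R47H by 0.04 ± 0.17 on the log2 scale (SE; adjusted p = 0.894). Oas1a, an oligoadenylate synthetase activated by double-stranded RNA, was lower in KO, with a difference of -0.43 ± 0.10 on the log2 scale (SE; adjusted p = 0.00135). Oas2 and Oas3 of the same family differed by -0.44 (adjusted p = 0.0515) and -0.45 (adjusted p = 0.0851) and were not called, and neither was Oasl1, which represses Irf7 translation (-0.32).

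Xaf1, a pro-apoptotic binding partner of Xiap, was also lower in KO. It read 18.3, 19.0, 10.1, 21.2 and 12 FPKQ in KO, 25.5, 33.9, 18.4, 30.5 and 35.1 FPKQ in R47H and 16.4 to 29.8 (median 27.2) FPKQ in WT. KO Rep3 and Rep5 lay below the WT range and the other KO libraries inside it. The KO difference was -0.61 ± 0.18 on the log2 scale (SE; adjusted p = 0.0063) and the R47H difference 0.19 ± 0.18 on the log2 scale (SE; adjusted p = 0.474). Mx2 was lower in KO, with a difference of -0.47 ± 0.19 on the log2 scale (SE; adjusted p = 0.0465), from 7.13 to 5.05 FPKQ, its call the weakest of the list. It was lost on leaving out any of 10 single libraries, which were WT Rep2, Rep3, Rep4, Rep5, Rep6, Rep8 and Rep10 and KO Rep2, Rep3 and Rep5, with adjusted p up to 0.23. It was also lost with no filter on low values, with robust moderation, with sex as a covariate and against WT Rep6-10 alone, 14 of 30 alternatives in all.

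Ifi44, an interferon-induced protein with a GTP-binding motif, was the effector that was higher in KO. Its levels were 15.5, 14.1, 7.83, 15.1 and 7.35 FPKQ in KO, 9.30, 6.48, 4.29, 15.3 and 13 FPKQ in R47H and 4.61 to 10.3 (median 6.59) FPKQ in WT. KO Rep1, Rep2 and Rep4 and R47H Rep4 and Rep5 were above every WT library, and the other KO libraries were within the WT range. KO rose by 0.67 ± 0.24 on the log2 scale (SE; adjusted p = 0.0254), and R47H differed by 0.33 ± 0.24 (adjusted p = 0.359). The KO call was lost without KO Rep1, without KO Rep2 and without KO Rep4 (adjusted p up to 0.0811). It was also lost with no filter on low values, with equal sums, with sex as a covariate and against WT Rep1-5 alone, with or without the replicate block (highest adjusted p = 0.294). Its difference was 0.34 against WT Rep1-5 alone and 1.00 against WT Rep6-10 alone.

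Ifit3, the gene that tracked the list level best, was high and low in the same libraries as the list. It read 151, 109, 53.1, 138 and 82.4 FPKQ in KO, 118, 102, 68.1, 192 and 197 FPKQ in R47H and 69.0 to 161 (median 131) FPKQ in WT. KO Rep3 and R47H Rep3 were below the WT range, R47H Rep4 and Rep5 above it. The differences were -0.25 ± 0.25 on the log2 scale (SE; adjusted p = 0.412) in KO and 0.07 ± 0.25 on the log2 scale (SE; adjusted p = 0.873) in R47H. Its neighbours Ifit1 and Ifit2, which bind foreign RNA, differed in KO by -0.21 and -0.04 and were not called. Nor were Rsad2 (viperin, which makes a chain-terminating nucleotide; -0.08), Mx1 (0.15), Rtp4 (-0.38, adjusted p = 0.0503), Parp14 (0.09), Trim30a (0.05), Bst2 (0.02) and Sp100, of nuclear bodies (-0.26).

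**Figure D5:**
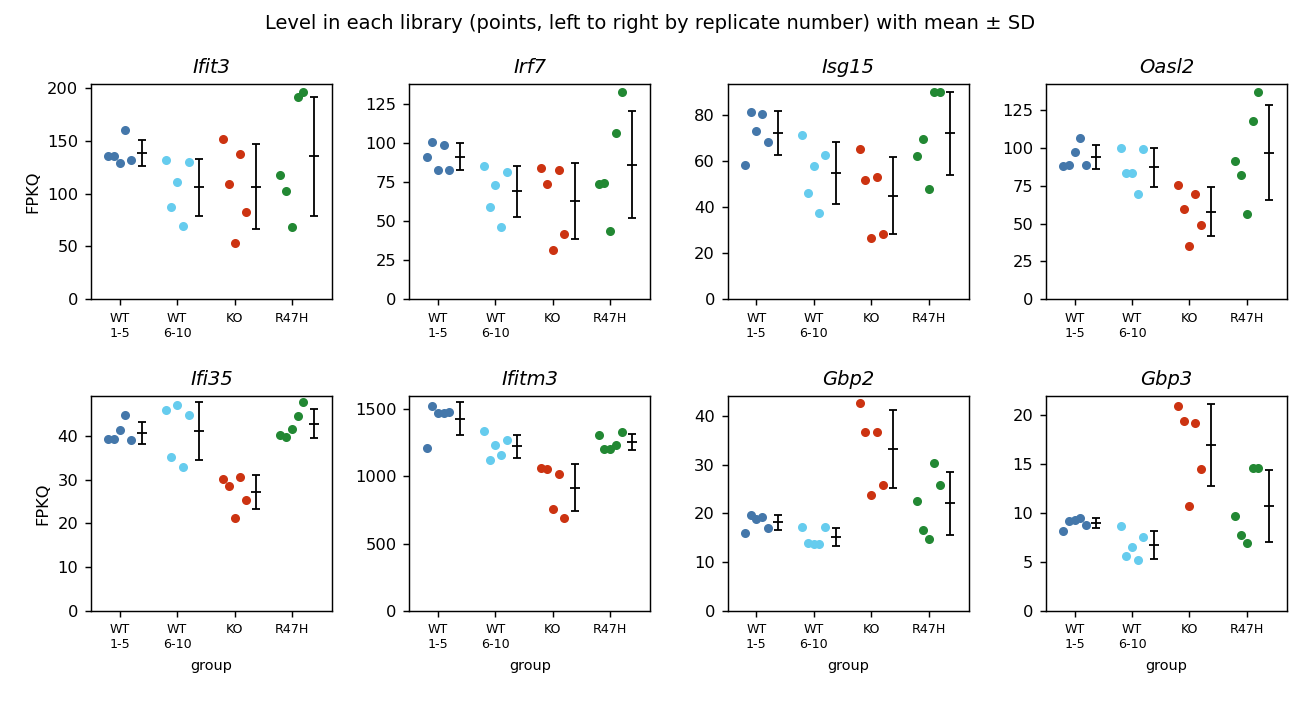
FPKQ level of 8 members (vertical axes, from 0) in each library (points) by group (horizontal axes), with mean ± SD of 5 libraries as bars. The KO points of Ifi35 and Ifitm3 lie below all WT points and those of Gbp2 and Gbp3 above them, while Ifit3, Irf7, Isg15 and Oasl2 overlap.

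The Isg15 system holds the modifier and the enzymes that attach and remove it. In KO 2 of its 3 members were lower, where 23.7% of tested genes were. Isg15 (chr4:156199424-156200818, minus strand) read 64.9, 51.5, 26.6, 52.7 and 28.4 FPKQ in KO, 62.1, 69.5, 47.9, 89.7 and 89.9 FPKQ in R47H and 37.2 to 81.1 (median 65.4) FPKQ in WT. KO Rep3 and Rep5 were below every WT library and the other 3 KO libraries within the WT range, while R47H Rep4 and Rep5 were above it. KO was lower, with a difference of -0.54 ± 0.21 on the log2 scale (SE; adjusted p = 0.0337), and R47H differed by 0.17 ± 0.21 on the log2 scale (SE; adjusted p = 0.597). The KO call was lost without WT Rep2, WT Rep3, WT Rep4, WT Rep6, KO Rep3 or KO Rep5 (adjusted p up to 0.143), against WT Rep6-10 alone, with no filter on low values and with sex as a covariate. Usp18 removes Isg15 from proteins and restrains the type I receptor. It read 23.8, 18.6, 11.3, 24.0 and 14.1 FPKQ in KO, 28.1, 21.4, 20.6, 39.4 and 35.7 FPKQ in R47H and 18.5 to 36.7 (median 29.5) FPKQ in WT, and KO Rep3 and Rep5 were again below the WT range. KO was lower, with a difference of -0.66 ± 0.18 on the log2 scale (SE; adjusted p = 0.00365) and R47H differed by -0.02 ± 0.18 on the log2 scale (SE; adjusted p = 0.964). Herc6, the mouse ligase of Isg15, differed by -0.21 in KO (adjusted p = 0.222).

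Among the GTPases that attack the vacuoles of intracellular pathogens, the guanylate-binding proteins Gbp2 and Gbp3 were higher in KO, and the 3 immunity-related GTPases of the list, Ifi47, Igtp and Irgm1, were not called. Iigp1, an immunity-related GTPase outside the list, was higher in KO by 1.27 ± 0.22 on the log2 scale (SE; adjusted p = 5.1e-05). Gbp2 (chr3:142620602-142638008, plus strand) read 42.7, 36.7, 23.8, 36.8 and 25.9 FPKQ in KO, 22.6, 16.7, 14.6, 30.3 and 25.9 FPKQ in R47H and 13.8 to 19.6 (median 17.1) FPKQ in WT. Its neighbour Gbp3 (chr3:142560026-142573209, plus strand) read 20.9, 19.4, 10.7, 19.2 and 14.5 FPKQ in KO, 9.71, 7.71, 6.98, 14.6 and 14.6 FPKQ in R47H and 5.22 to 9.48 (median 8.45) FPKQ in WT. For both genes even KO Rep3, the library with the lowest list level, was above every WT library. Gbp2 rose by 0.93 ± 0.15 on the log2 scale (SE; adjusted p = 2.0e-05), which is 1.91-fold, and Gbp3 by 1.01 ± 0.17 on the log2 scale (SE; adjusted p = 5.4e-05), which is 2.01-fold. In R47H their differences were 0.35 ± 0.15 and 0.37 ± 0.17 (adjusted p = 0.104 and 0.143). Irgm1, the most abundant of the GTPases, read 104, 91.1, 65.9, 104 and 82.0 FPKQ in KO, 101, 89.1, 75.9, 127 and 133 FPKQ in R47H and 84.5 to 117 (median 108) FPKQ in WT. KO Rep3 and Rep5 lay under the WT range, and the differences of -0.25 ± 0.12 in KO and -0.03 ± 0.12 in R47H were not called (adjusted p = 0.086 and 0.895). Ifi47 and Igtp differed in KO by -0.08 and -0.19.

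Cxcl10, the chemokine that draws Cxcr3-bearing T cells, was not called in either mutant. It read 15.5, 13, 8.09, 12 and 10.8 FPKQ in KO, 15.1, 13.2, 11.8, 27.4 and 19.9 FPKQ in R47H and 8.25 to 17.8 (median 11.2) FPKQ in WT. R47H Rep4 and Rep5 were above every WT library and the rest within or at the edge of the WT range. The differences were -0.02 ± 0.18 on the log2 scale (SE; adjusted p = 0.939) in KO and 0.47 ± 0.18 on the log2 scale (SE; adjusted p = 0.064) in R47H.

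In R47H macrophages 0 of the 37 genes were called against WT, where 21.2% of all tested genes were called in either direction. At an unadjusted p under 0.05 there were 3 members, where 3607 of the 10843 tested genes were. The median member difference was 0.06 and that of all tested genes 0.04, and the widest were Cxcl10 (0.47 ± 0.18), Gbp3 and Gbp2. For 37 of 37 members the range of the 5 R47H libraries overlapped that of WT, where 3.77% of tested genes lay wholly above it and 3.14% wholly below. A missed threshold does not show that R47H and WT were alike. Without R47H Rep3 the members called higher were 2, Gbp2 (0.48) and Cxcl10 (0.59), and without WT Rep4 Cxcl10 (0.53) was called. For these fits no share of tested genes is given. Against WT Rep6-10 alone, Gbp2 (0.47) and Gbp3 (0.57) were higher in R47H, where 12.7% of tested genes were. Against WT Rep1-5 alone 0 members were called, where 21.1% of tested genes were. There 1 member had an unadjusted p under 0.05, as did 3629 of the 10843 tested genes. With sex as a covariate Cxcl10 (0.57) was called, where 10.3% of tested genes were higher.

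R47H and KO were also compared directly. In R47H 8 members were higher than in KO and 2 lower, or 21.6% and 5.41% of the list, where 22.8% and 18% of tested genes were called. The higher members were Xaf1, Oasl2, Isg15, Oas2, Ifi35, Usp18, Oas1a and Ifitm3, and the lower were Gbp3 and Gbp2. The median member difference was 0.23 and that of all tested genes 0.03. Xaf1 was 0.81 ± 0.21 on the log2 scale (SE; adjusted p = 0.00379) higher in R47H than in KO, and Oasl2 0.72 ± 0.20 on the log2 scale (SE; adjusted p = 0.00661) higher. Isg15 differed by 0.72 ± 0.24, Ifi35 by 0.65 ± 0.10, Usp18 by 0.64 ± 0.20 and Ifitm3 by 0.48 ± 0.11 (adjusted p = 0.0215, 3.8e-05, 0.0163 and 0.0023). Gbp2 differed by -0.58 ± 0.17 and Gbp3 by -0.64 ± 0.20 (adjusted p = 0.0103 and 0.0161).

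Oas2, an oligoadenylate synthetase, passed this test although neither mutant passed it against WT. It read 32.2, 31.0, 16.8, 33.2 and 23.8 FPKQ in KO, 40.8, 46.7, 24.2, 52.2 and 58.9 FPKQ in R47H and 27.4 to 48.4 (median 37.2) FPKQ in WT. KO Rep3 and Rep5 were below the WT range and R47H Rep4 and Rep5 above it. The difference was 0.66 ± 0.21 on the log2 scale (SE; adjusted p = 0.0175). Only Ifi35 and Ifitm3 separated the mutants without overlap, where 12.3% of tested genes lay wholly above KO and 10.8% wholly below. Without KO Rep3 the count of higher members was 5, and without R47H Rep3 it was 15 with 1 lower. The shares of tested genes in these fits are not given. Single libraries also ended the calls of Isg15 (KO Rep3, KO Rep5, R47H Rep4, R47H Rep5), Oas2 (KO Rep3, R47H Rep5), Usp18 (KO Rep3) and Gbp3 (R47H Rep3). With each mutant set against the wild-type set next to it, the mutants differed by -0.33 in Gbp2 (adjusted p = 0.356) and -0.24 in Gbp3 (adjusted p = 0.564), and neither was called. The calls of Oas2 and Oasl2 were also lost there, and that of Isg15 with no filter on low values.

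The wild-type sets showed how far these genes moved with no labelled change of genotype. Between WT Rep6-10 and WT Rep1-5 limma called 0 of 37 members, where it called 3.63% of tested genes higher and 2.88% lower. That model takes its estimate of spread from the KO and R47H libraries as well. With only the wild-type sets fitted 10 members were lower, and with library weights 5 were. The shares of tested genes in these fits are not given, so the counts were not set against the background. In the model of 4 groups 7 members had an unadjusted p under 0.05, where 2452 of the 10843 tested genes did. The median member difference was -0.25 against 0.00 over all tested genes, and 34 of 37 members were below 0. All 5 libraries of WT Rep6-10 lay below all 5 of WT Rep1-5 for 7 members, Stat2, Ifih1, Ifi204, Oasl1, Ifi44, Rtp4 and Parp14, where 5.25% of tested genes were so placed. Stat2 read 35.8 to 51.4 FPKQ in WT Rep6-10 and 57.2 to 68.4 FPKQ in WT Rep1-5, a difference of -0.56 ± 0.17 on the log2 scale (SE; adjusted p = 0.0549). Rtp4, a chaperone of receptors that also restricts viruses, read 101 to 152 and 166 to 186 FPKQ. In contrast Ifi35 (0.00), Oas2 (0.01) and Cxcl10 (0.04) had differences near 0. Males were 4 of 5 in WT Rep6-10 and 2 of 5 in WT Rep1-5, and with sex as a covariate, chosen after seeing the data, Stat2 was called (-0.62), where 2.82% of tested genes were lower.

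The control set moved the KO counts. Against WT Rep1-5 alone 11 members were lower and 2 higher in KO (19.6% and 24.7% of tested genes), with a median of -0.32. Against WT Rep6-10 alone 6 were lower and 3 higher (24.7% and 27.6% of tested genes), with a median of -0.06. Ifi35, Ifitm3, Oasl2, Oas1a, Usp18, Xaf1, Gbp2 and Gbp3 kept their KO calls in all 30 alternatives. These included both control sets and each WT or KO library left out in turn. With sex as a covariate 6 members were lower and 2 higher in KO, where 22.6% and 26.4% of tested genes were called.

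Because the whole programme moved from library to library, a further model took as covariate each library's median level of other interferon-induced genes, relative to the WT mean. This alternative was chosen after seeing the data. Its covariate is built from genes of the same programme, so it takes out variation that the members share with them. With 12 of those genes higher and 13 lower in KO, it also cannot be taken as independent of genotype. The counts of this model are therefore given as a description. In KO 17 members were then lower and 6 higher, where 25.1% and 29% of tested genes were called. In R47H against WT 3 members were higher, Cxcl10 (0.39), Gbp2 (0.27) and Gbp3 (0.27), and Ifit2 was lower (-0.22), where 15.3% and 8.34% of tested genes were called. In R47H against KO 11 members were higher and 6 lower, where 25.2% and 19.6% were. Between the wild-type sets 2 were higher and 1 lower, where 2.79% and 2.32% were.

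The inducers of the programme were at or near 0. Of the interferon genes listed, Ifna1, Ifna2, Ifna4, Ifna5, Ifne, Ifng, Ifnl2 and Ifnl3 were listed at 0 in all 20 libraries, and Ifnb1 reached at most 0.164 FPKQ. These genes were singled out after their values were seen. Of the receptors 5 could be tested. In KO, Ifnar2 (0.22), Il10rb (0.17), Ifngr2 (0.14) and Ifngr1 (0.12) were higher and Ifnar1 (-0.14) lower. Of all tested genes 28.2% were higher and 23.7% lower in KO. In R47H, Ifngr2 (0.28), Il10rb (0.20) and Ifnar2 (0.20) were higher and 0 lower, where 13.4% and 7.83% of tested genes were. Between the mutants, Ifngr2 was higher (0.14) and Ifngr1 lower (-0.17) in R47H. Between the wild-type sets 0 receptors were called, where 3.63% of tested genes were higher and 2.88% lower. Ifnar1 and Ifnar2 form the type I receptor, Ifngr1 and Ifngr2 the type II receptor, and Il10rb is a shared chain of the type III receptor.

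Of 23 tested genes for signalling and upstream factors, 11 were higher and 6 lower in KO, with a background of 28.2% and 23.7%. Jak1, a kinase of both interferon receptors, read 92.0, 86.9, 90.8, 87.8 and 95.5 FPKQ in KO, 65.5, 62.3, 62.5, 74.0 and 75.3 FPKQ in R47H and 57.7 to 66.4 (median 60.0) FPKQ in WT. All KO libraries were above all others, and KO rose by 0.56 ± 0.05 on the log2 scale (SE; adjusted p = 5.2e-09). The kinase Ikbke (0.67) and the feedback inhibitor Socs3 (0.77) were higher, and the phosphatase Ptpn6 (-0.39) and the DNA sensor cGAS, listed as Mb21d1 (-0.59), were lower. In R47H 8 were higher and 1 lower against WT, or 34.8% and 4.35%, where 13.4% and 7.83% of tested genes were called. Among the higher were Ikbke (0.51), the adaptor Mavs (0.24), Irf1 (0.34) and Irf3 (0.33), and the lower was Mb21d1 (-0.39). Against KO, R47H had 5 higher, including Ptpn6 (0.58), Irf2 (0.35), Irf3 (0.35) and Myd88 (0.25), and 4 lower, including Jak1 (-0.41). These were 21.7% and 17.4%, where 22.8% and 18% of tested genes were called. Between the wild-type sets Ticam1 (0.23) and Ptpn6 (0.17) were higher and Irf1 (-0.26) lower in WT Rep6-10. These were 8.7% and 4.35%, where 3.63% and 2.88% of tested genes were called.

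Of 66 other interferon-induced genes that could be tested, 12 were higher and 13 lower in KO, or 18.2% and 19.7%, both under the 28.2% and 23.7% of all tested genes. Ifi27l2a, an interferon-induced membrane protein, read 189, 181, 85.6, 189 and 93.9 FPKQ in KO, 322, 345, 232, 345 and 349 FPKQ in R47H and 275 to 438 (median 389.8) FPKQ in WT. KO lay below all other libraries and differed from WT by -1.44 ± 0.17 on the log2 scale (SE; adjusted p = 2.3e-07). Ube2l6, the conjugating enzyme of Isg15, read 54.5, 48.1, 27.0, 48.8 and 42.5 FPKQ in KO, 71.3, 70.5, 68.9, 73.0 and 79.6 FPKQ in R47H and 64.1 to 99.4 (median 88.6) FPKQ in WT. Its KO libraries were also below all others, by -0.98 ± 0.12 on the log2 scale (SE; adjusted p = 4.0e-07) against WT. Uba7, the activating enzyme of Isg15, was not called (-0.13, adjusted p = 0.313). Cd274 (PD-L1, the ligand of the T cell checkpoint receptor PD-1) read 29.1, 28.8, 32.2, 31.6 and 33.5 FPKQ in KO, 19.7, 16.7, 17.9, 20.2 and 21.7 FPKQ in R47H and 10.7 to 17.9 (median 14.2) FPKQ in WT. KO was above all others and R47H overlapped WT, with differences of 1.08 ± 0.09 on the log2 scale (SE; adjusted p = 6.8e-10) and 0.41 ± 0.09 on the log2 scale (SE; adjusted p = 0.0012). The guanylate-binding proteins Gbp5 (0.99) and Gbp7 (1.21) were higher in KO, as Gbp2 and Gbp3 were.

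In R47H 3 of these 66 genes were higher than in WT, Cd274, Gbp5 (0.59) and Gbp6 (0.57), and 0 were lower. The higher share was 4.55%, where 13.4% of tested genes were higher and 7.83% lower. Against KO, 8 were higher in R47H and 5 lower, or 12.1% and 7.58%, where 22.8% and 18% of tested genes were called. Ifi27l2a (1.17) and Ube2l6 (0.74) were among the higher, and Gbp7 (-0.98) and Cd274 (-0.67) among the lower. Between the wild-type sets Cd274 (-0.27) was among the 2 genes (3.03%) that were lower in WT Rep6-10, with 0 higher. Of all tested genes 2.88% were lower and 3.63% higher there.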

How the data were processed

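The authors deposited a table per library of 51456 symbols whose values, headed FPKQ, were taken as FPKM. The submitters' processing notes name RSEM and GRCm38, and no label or header used here defines FPKQ. RSEM can divide fragments between similar genes. Levels were analysed as log2(FPKQ + 1), so differences are on that scale and understate those of low genes. The 10843 genes whose mean reached 1 FPKQ were fitted together in limma 3.58.1 in R 4.3.3 (lmFit, eBayes with trend), with Benjamini-Hochberg adjustment over all of them and a threshold of 0.05. All adjusted p-values come from limma. A model of 3 groups gave the genotype comparisons, and a model of 4 groups those with a wild-type set. The fit was tested on simulated data. The labels name no separate cultures or batches, so p-values measure the spread between these libraries.

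The genes, their roles and the pathway lists were chosen with earlier results of these data known. All 37 genes were named. Values by library were given for the highest gene of each role, Irf7, Isg15, Ifit3 and the 5 called genes with the largest difference in each comparison. From each pathway list up to 5 called genes a comparison, by smallest adjusted p, were named. Iigp1 and Uba7 were named outside that rule, as relatives of members. Depth came from low values of single-transcript genes of 600 bases or more, where 85.1% to 88.4% were whole fragments within 0.1. As whole fragments were not recovered for nearly all values, no count test was run. Coordinates of genes are from GENCODE M21 on GRCm38, and promoters are from RefSeq on GRCm38.p6. Sex was read from Xist and Y-linked genes. Summaries used Python 3.11.15, numpy 2.4.6, pandas 2.3.3, scipy 1.17.1 and matplotlib 3.10.9. Some genes of the comparison lists are counted but not reported here by name.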

Additional observations from a re-analysis of the deposited data

Results flagged for a closer look

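Of 111 groups of 5 or 10 values (37 genes in 3 genotypes), 1 held a library set apart from the others of its genotype. Irf9, the DNA-binding subunit of ISGF3, read 29.4 FPKQ in WT Rep9, the lowest of 10, against 37 FPKQ in the median WT library. The gap to the next library was 0.643 of the whole WT range. Chance alone sets apart about 1 in 20 such groups. WT Rep9 also had the lowest list level of the WT libraries, -0.47.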

How the results depend on the processing

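Counts of the 37 members were recomputed under 16 settings and with each of 20 libraries left out. Counts given without a share of tested genes, here and above, were not set against the background. In KO against WT the lower count was 14 with only the compared groups fitted and 17 with the covariate of other interferon-induced genes, under which 6 were higher. Leaving out single libraries gave 6 to 12 lower and 2 to 3 higher. In R47H against WT the higher count was 3 with library weights (Gbp2, Gbp3, Cxcl10), 2 against WT Rep6-10, 1 with sex (Cxcl10) and 3 with the interferon covariate. The lower count was 1 with quantile normalization and 1 with that covariate, and leaving out libraries gave 0 to 2 higher. In R47H against KO the lower count was 0 with each mutant set against a wild-type set of its own and 6 with the covariate. Leaving out libraries gave 5 to 15 higher and 1 to 2 lower. Between the wild-type sets the lower count was 1 at a minimum mean of 5 FPKQ, 1 with quantile normalization, 5 with library weights, 10 with only these sets fitted, 1 with sex and 1 with the interferon covariate, under which 2 were higher. Those, Oasl2 (0.23) and Trim30a (0.15), had been below 0 and reversed. Trem2 in R47H differed by -0.27 against WT Rep6-10 (exact permutation p = 0.135). The causes were not tested. Rescaling to equal sums moved the median of all tested genes in R47H from 0.04 to -0.07, and other scalings moved no median by that much.

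With the replicate number as a block, WT Rep1-5 serving as the controls, the KO lower count was 14 (18.3% of tested genes were lower). Deviations of libraries with the same replicate number were correlated between WT Rep1-5, KO and R47H. The other wild-type set was not compared. Over 15 pairs the correlations ran from -0.15 to 0.31, 7 were over 0.1, and the same number was the best match in 4. Such weak correlations do not decide whether replicate numbers pair the samples.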
